A study of Mus musculus with 20 samples.

Results

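Disease-associated microglia (DAM) are a state of the brain's resident macrophages that is described around amyloid plaques, in demyelinated lesions and in ageing tissue, and it is recognised by a short list of marker genes. Entry into the full state requires the surface receptor TREM2, which binds lipids, lipoproteins and cell debris and signals through the adaptor TYROBP (also called DAP12) to the kinase SYK. As microglia enter the state they gain lipid handling, lysosomal and phagocytic genes and lose homeostatic genes such as P2ry12 and Tmem119. The 10 markers described here are the receptor Trem2 and its adaptor Tyrobp, the lipid carrier gene Apoe, the secreted products Spp1 and Cst7, and the membrane proteins Gpnmb, Clec7a, Cd9, Cd52 and Axl. Each symbol matched a single identifier among the 55487 of the count table, and all 10 were among the 12799 genes abundant enough to be tested.

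The genes were measured by RNA sequencing (RNA-Seq) in BV-2 microglia, an immortalized mouse cell line established from the brain of young C57BL/6 mice and labelled wild type. There were 4 groups of 5 cultures: young BV-2 microglia at a low passage and aged BV-2 microglia kept for months in continuous culture, each left untreated or exposed to bacterial lipopolysaccharide (LPS, 100 ng/ml for 6 hours). LPS is the ligand of Toll-like receptor TLR4. The labels give each culture a batch number from 1 to 5, and each batch held 1 culture of every group. All cultures came from 1 line, so age here means time in culture and not the age of an animal.

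Total counts ran from 11371508 to 16829292 per library and mitochondrial genes took 0.517 to 1.30% of them. The 7 markers of microglia and macrophages, among them Csf1r, Itgam and Spi1, summed to between 1980 and 3894 CPM (counts scaled to a common library size), while the 24 markers of astrocytes, oligodendrocytes, neurons, fibroblasts, T cells and B cells together gave 1.07 to 3.02 CPM and 12 of them were at 0 in all 20 libraries. The labelled cell type was therefore carried by its markers, although the homeostatic genes Sall1, Gpr34 and Siglech were too low to be tested. CPM were computed on library sizes scaled by the TMM method, which assumes that most genes do not change between groups.

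The start regions of the genes were read from RefSeq (build GRCm38.p6), from 250 bases before to 50 bases after the annotated start, and 8 of the 10 members were matched, all but Tyrobp and Cd52. Both strands were searched for 5 motifs of factors used by macrophages, and the share of all 32851 such windows that hold each motif is given beside it: the PU.1 site GAGGAAGT (3.20%), the E-box CACGTG (7.15%), the AP-1 site TGANTCA (7.81%), the interferon-stimulated response element ISRE, taken as GAAA and GAAA spaced by any 2 bases (3.44%), and the NF-kappaB site, given by name only (8.46%). Spp1 held a PU.1 and an ISRE match, Trem2, Gpnmb and Cst7 held an AP-1 match, and the windows of Apoe, Clec7a, Cd9 and Axl held none of these letters. The 4 windows with a match are printed 5′ to 3′ on the strand of the gene, with the matched letters in capitals, because 3 of them carry the AP-1 letters within 9 bases of the annotated start and because Spp1 and Cst7 are the members that were higher in aged BV-2 microglia.
Trem2, chr17:48346151-48346450, plus strand: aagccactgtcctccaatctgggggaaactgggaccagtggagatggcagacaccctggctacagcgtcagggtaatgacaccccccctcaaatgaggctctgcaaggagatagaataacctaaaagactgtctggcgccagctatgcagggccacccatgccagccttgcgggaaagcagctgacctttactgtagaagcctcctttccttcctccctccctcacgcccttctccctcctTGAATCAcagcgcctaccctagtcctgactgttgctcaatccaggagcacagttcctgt
Gpnmb, chr6:49036268-49036567, plus strand: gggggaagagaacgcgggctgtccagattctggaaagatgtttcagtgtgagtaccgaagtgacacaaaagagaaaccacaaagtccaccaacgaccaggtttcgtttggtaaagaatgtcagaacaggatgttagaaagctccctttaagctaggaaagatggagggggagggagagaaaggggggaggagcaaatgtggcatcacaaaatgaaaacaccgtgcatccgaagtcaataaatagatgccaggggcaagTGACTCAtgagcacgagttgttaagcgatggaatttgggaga
Cst7, chr2:150570165-150570464, plus strand: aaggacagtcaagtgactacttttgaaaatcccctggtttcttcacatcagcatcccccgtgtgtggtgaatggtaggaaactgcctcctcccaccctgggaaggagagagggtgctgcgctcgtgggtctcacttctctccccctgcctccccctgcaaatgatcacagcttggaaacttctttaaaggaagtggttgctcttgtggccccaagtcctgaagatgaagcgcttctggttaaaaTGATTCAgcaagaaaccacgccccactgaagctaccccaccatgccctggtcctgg
Spp1, chr5:104434861-104435160, plus strand: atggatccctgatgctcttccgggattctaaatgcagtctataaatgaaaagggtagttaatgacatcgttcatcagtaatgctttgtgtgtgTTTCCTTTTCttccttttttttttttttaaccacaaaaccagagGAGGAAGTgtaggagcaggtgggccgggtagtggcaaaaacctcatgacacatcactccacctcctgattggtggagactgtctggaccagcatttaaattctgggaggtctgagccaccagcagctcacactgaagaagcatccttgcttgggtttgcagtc
Counting the annotated start as +1, the AP-1 letters began at -9 in Trem2, at +9 in Gpnmb and at -6 in Cst7. In Spp1 the PU.1 letters began at -113 and the ISRE, which lies on the opposite strand, at -157. These matches are letters in a window, and binding was not measured.

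In GENCODE M21 on GRCm38, Trem2 lies on chromosome 17 (48346401 to 48354147, plus strand), Tyrobp on chromosome 7 (30413760 to 30417585, plus), Apoe on chromosome 7 (19696109 to 19699188, minus) and Axl on chromosome 7 (25757273 to 25788705, minus). Spp1 lies on chromosome 5 (104435118 to 104441050, plus), Cst7 on chromosome 2 (150570415 to 150578944, plus) and Cd52 on chromosome 4 (134082448 to 134095082, minus). Gpnmb (49036546 to 49070929, plus), Clec7a (129461591 to 129472779, minus) and Cd9 (125460266 to 125494791, minus) are on chromosome 6. Clec7a is annotated there as a polymorphic pseudogene and the other 9 as protein coding. Counts summed over the exons of each gene, and 3 members share exon bases with another annotated gene. Spp1 shares 309 bases on the same strand with Gm42793 (12133 counts over all libraries, against 903830 for Spp1), Cd9 shares 218 with Gm26728 on the opposite strand (41 against 93782 counts) and Cd52 shares 172 with Crybg2 on the opposite strand (672 against 4437 counts). How the counting treated strand and overlapping genes is not given in the sources used here, so the values of these 3 genes are uncertain to that extent.

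Compared per exon length, as TPM (counts per kilobase of exon, scaled to a common sum in each library), the markers spanned from 5193 down to below 1 in young untreated cells. Spp1 was at 5193 ± 970 TPM and Apoe at 4980 ± 916 (mean ± SD, n = 5), with overlapping libraries. They were followed by Gpnmb (3068 ± 672), Tyrobp (1889 ± 355), Cd9 (604 ± 41.3), Trem2 (239 ± 28.1), Cst7 (176 ± 18.9), Clec7a (161 ± 17.3), Cd52 (49.7 ± 16.6) and Axl (0.338 ± 0.0885). Gpnmb overlapped with Apoe and Clec7a with Cst7 over their libraries, and the other neighbours in this order did not overlap. The order shifted at the top in aged cells: in aged untreated BV-2 microglia Spp1 stood at 7736 ± 317 TPM, above every library of Apoe (2915 ± 363), which overlapped with Gpnmb (2590 ± 555). Cst7 (223 ± 14.0) and Trem2 (204 ± 34.6) overlapped there. In young LPS-treated cells Cd52 (72.6 ± 26.1 TPM) had moved next to Trem2 (122 ± 19.3) and Clec7a (58.3 ± 10.1), overlapping with both. In aged LPS-treated cells the mean of Gpnmb (2259 ± 454 TPM) was above that of Apoe (1863 ± 413), with overlapping libraries, and Spp1 remained the most abundant (7223 ± 255). Axl was the lowest of the 10 in all 4 groups.

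**Figure D1:**
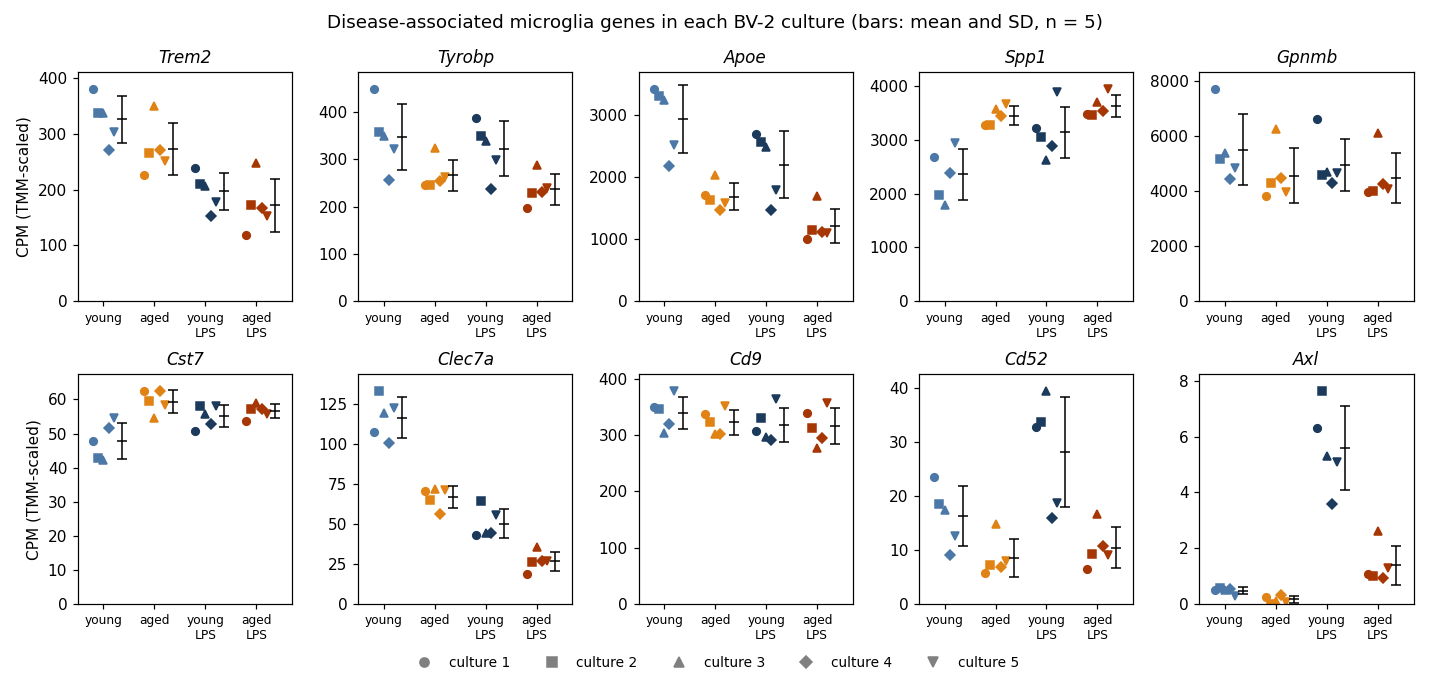
Level of each of the 10 genes in every culture, in CPM on TMM-scaled library sizes (vertical axis, starting at 0) for the 4 groups of 5 cultures, with the symbol giving the culture number and the black bar the mean and SD. Apoe and Clec7a step down with age and with LPS, Spp1 sits higher in aged untreated cells (3268 to 3672 CPM) than in young untreated cells (1796 to 2936), and Axl rises from under 1 CPM to 3.58 to 7.63 CPM in young LPS-treated cells.

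The first comparison, aged against young BV-2 microglia without LPS, asks which markers differ between unstimulated aged and young cells. Time in culture and any other difference between the aged and young stocks cannot be told apart here. Apoe, Clec7a and Cd52 were lower and Spp1 and Cst7 higher in aged cells, so 5 of the 10 markers passed the test (edgeR quasi-likelihood test, Benjamini-Hochberg adjusted p below 0.05 over all genes). Among all 12799 genes 11.5% passed in this comparison, 3.71% as higher and 7.81% as lower. The median log2 fold change (FC) of the 10 markers was -0.33, against -0.014 over all genes. The markers thus did not move one way with age: Spp1 and Cst7 were higher, and Apoe and 2 of the membrane proteins lower. In bulk RNA, fewer cells expressing a gene and less of its RNA per cell cannot be told apart.

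Of the receptor pair, Trem2 was at 381, 338, 337, 271 and 303 CPM in young cultures 1 to 5 and at 225, 266, 350, 272 and 250 CPM in aged cultures 1 to 5. The groups overlapped, since aged culture 3 was above 4 of the young cultures, and the log2 FC of -0.26 did not pass (95% interval -0.57 to 0.06, adjusted p = 0.304). Tyrobp, the adaptor that TREM2 shares with other activating receptors, was at 449, 358, 350, 256 and 322 CPM in young cultures and at 245, 245, 325, 254 and 263 CPM in aged cultures. The aged value was the lower within all 5 batches, with a log2 FC of -0.38 (SE 0.13) and an adjusted p of 0.0643. With the batch number as a replicate block in the edgeR model, Tyrobp passed (log2 FC -0.37, adjusted p = 0.0298), and 6 markers were then called against 17.2% of all genes.

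Apoe, which encodes the apolipoprotein that carries cholesterol and phospholipids and is a ligand of TREM2, fell without overlap between the groups. It was at 3420, 3303, 3234, 2175 and 2515 CPM in young cultures and at 1709, 1627, 2039, 1468 and 1579 CPM in aged cultures. Every aged culture lay below every young one, and the mean was 1.74-fold lower (log2 FC -0.80, SE 0.16, adjusted p = 0.00254). Within batches the difference ranged from -1.02 to -0.57 on the log2 scale.

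Spp1 encodes osteopontin, a secreted glycoprotein that binds CD44 and integrins. It was at 2688, 1982, 1796, 2387 and 2936 CPM in young cultures and at 3281, 3268, 3573, 3433 and 3672 CPM in aged cultures. The groups did not overlap and the spread among aged cultures (SD 177 CPM) was narrower than among young ones (SD 475 CPM). The fold was 1.46 (log2 FC 0.55, SE 0.11, adjusted p = 0.00187). Cst7 encodes cystatin F, an inhibitor of lysosomal cysteine cathepsins. It was at 47.7, 42.9, 42.1, 51.6 and 54.5 CPM in young cultures and at 62.3, 59.4, 54.5, 62.3 and 58.3 CPM in aged cultures. Aged values were higher within all 5 batches, but the lowest aged culture, at 54.51 CPM, was only just above the highest young one, at 54.46 CPM. The rise was 1.24-fold (log2 FC 0.32, SE 0.065, adjusted p = 0.00274).

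Among the membrane proteins, Clec7a encodes Dectin-1, a receptor for fungal beta-glucans that signals through SYK. It was at 108, 133, 119, 101 and 122 CPM in young cultures and at 70.4, 64.9, 72.1, 56.0 and 70.9 CPM in aged cultures. The groups did not overlap, and the aged mean was 1.74-fold lower (log2 FC -0.80, SE 0.12, adjusted p = 0.000219). Cd52, a short glycosylphosphatidylinositol-anchored surface glycoprotein of leukocytes, was at 23.6, 18.5, 17.4, 9.10 and 12.6 CPM in young cultures and at 5.76, 7.20, 14.8, 6.76 and 7.99 CPM in aged cultures. Aged culture 3 and young cultures 4 and 5 overlapped, and the fall of 0.93 on the log2 scale (SE 0.30) passed narrowly (adjusted p = 0.0472). This call was lost without young untreated culture 1 (log2 FC -0.76, adjusted p = 0.137) and when batch 1, 2, 4 or 5 was left out (adjusted p = 0.0522 to 0.233). With batch as a replicate block it was kept in edgeR (adjusted p = 0.00868) and in DESeq2 (0.00440).

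Gpnmb, a glycoprotein of phagosomes and lysosomes, ranged from 4438 to 7719 CPM in young and from 3825 to 6272 CPM in aged cultures, and its log2 FC of -0.27 did not pass (adjusted p = 0.296). The tetraspanin Cd9, which organises membrane proteins and marks extracellular vesicles, had the smallest difference of the 10, at 303 to 378 CPM in young and 301 to 351 CPM in aged cultures (log2 FC -0.07, 95% interval -0.23 to 0.08, adjusted p = 0.609). Axl, a receptor tyrosine kinase that recognises dying cells through its bridging ligand GAS6, was close to the limit of detection without LPS. It had 7, 9, 8, 8 and 4 counts in young cultures and 4, 0, 2, 6 and 1 counts in aged cultures, 3 of which were at or under the floor of 3 counts. The library with 0 counts allows a level of up to 0.202 CPM, a limit that covers counting error only. Its log2 FC of -1.50 (SE 0.56) had an adjusted p of 0.0861 in edgeR and of 0.0332 by the DESeq2 Wald test. Axl had passed the filter on low counts through the LPS-treated groups only, so its untreated values rest on a few reads.

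Of the other genes of the pathways, taken from 11 lists, most did not pass and most of those that did were lower in aged untreated cells. Among all genes 11.5% passed, 3.71% as higher and 7.81% as lower. Of 34 tested genes of the wider DAM programme 6 fell, led by Lgals3bp (log2 FC -1.77) and the chemokine gene Ccl4 (-0.92), and only the lipoprotein lipase gene Lpl rose (0.26), with 11 called in all when batch was in the model as a replicate block. Of 22 genes around TREM2 and TYROBP signalling 6 fell, with the largest falls in the membrane-spanning genes Ms4a4a (-3.44), at 1.41 ± 0.768 CPM in young cells, and Ms4a6d (-1.07). Of 17 lipid partners of APOE 5 fell, namely Apoc2 (-1.02), the cholesterol exporter gene Abca1 (-0.41), the liver X receptor genes Nr1h3 (-0.24) and Nr1h2 (-0.22), and Sorl1 (-0.19), while Lpl, which is also on this list, rose. The other 11 genes of the list did not pass.

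In the smaller lists, single genes passed. Dectin-1 signalling gave Fcer1g (log2 FC -0.20) among 15 genes, the TAM receptor system, to which Axl belongs, gave its family member Mertk (-0.44) among 3 tested genes, and the osteopontin receptors gave Itgb5 (-0.58) among 6. The MiT/TFE regulators of lysosomal genes such as Gpnmb gave Tfec (-1.37) among 7. Cystatin F targets and cystatins gave Ctsh (-0.75) and Cst3 (-0.42) among 8 genes, and the tetraspanins and their partners gave Cd81 (-0.60) and Ptgfrn (-0.21) among 13. With the replicate block the called genes numbered 3 for Dectin-1 signalling, 2 for osteopontin receptors, 4 for cystatins and 4 for tetraspanins. Of 11 homeostatic microglia genes 5 fell, namely Fcrls (-1.42), P2ry13 (-0.99), Olfml3 (-0.66), Csf1r (-0.44) and Tgfbr1 (-0.22). Of the 12 interferon-induced genes 6 fell, led by Rsad2 (-4.07) and Ifit1 (-2.94). Of the 12, only 3 had at least 10 counts in every library, and these were not among the 6 that fell.

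These list counts depended on the batches in the fit. With a batch left out, the genes called among all genes fell from 1475 to between 548 (without batch 2) and 1193. The lists then had 1 to 7 called genes in the wider DAM programme, 2 to 6 around TREM2 and TYROBP, 2 to 4 among lipid partners of APOE and among homeostatic genes, 2 to 5 among interferon-induced genes, 1 to 5 among cystatins, 1 to 3 among tetraspanins, 0 to 2 among osteopontin receptors and 0 to 1 in Dectin-1 signalling. Without young untreated culture 1 alone there were 4 in the wider DAM programme and 2 among interferon-induced genes, which summed to 142.6 CPM in that culture against 66.5 to 89.2 CPM in the other young untreated cultures. Without aged culture 3 there were 14 in the wider DAM programme and 6 among cystatins.

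**Figure D2:**
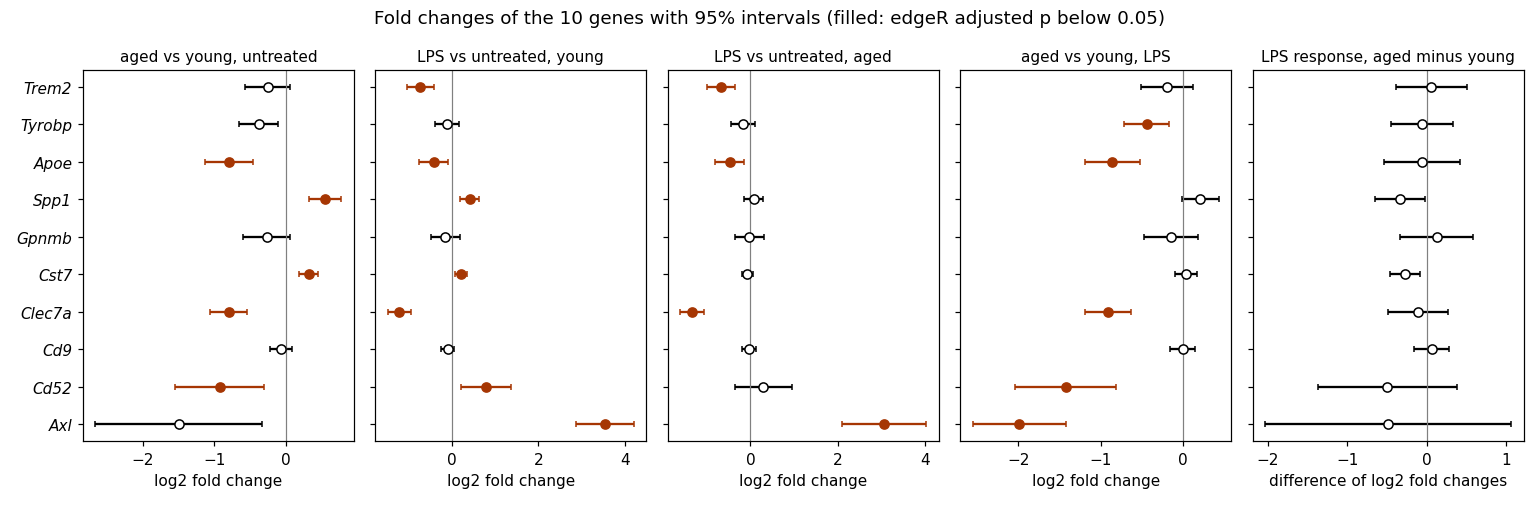
Log2 FC of each of the 10 genes in the 4 comparisons and, in the panel at the right, the difference between the LPS responses of aged and young cells, with 95% intervals and filled points where the edgeR adjusted p was below 0.05. The horizontal scales differ between panels. With age, Apoe and Clec7a lie to the left in both the untreated and the LPS panel, Axl lies above 3 in both LPS panels, and no point is filled in the panel of differences.

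The second comparison, LPS against no LPS in young BV-2 microglia, asks which markers respond to TLR4 stimulation. Axl rose sharply, Cd52, Spp1 and Cst7 rose modestly, and Trem2, Apoe and Clec7a fell. These are 7 of the 10 markers, 4 higher and 3 lower, in a comparison where 64.6% of all genes passed, 31.2% as higher and 33.5% as lower. The median log2 FC was -0.10 over the markers and -0.011 over all genes. The scaling matters here: with library sizes alone the median of all genes moved to -0.23 and 2407 genes were called higher against 6401 lower, in place of 3988 and 4282.

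Axl was at 0.483, 0.575, 0.483, 0.527 and 0.266 CPM in young untreated cultures and at 6.32, 7.63, 5.31, 3.58 and 5.08 CPM in young LPS-treated cultures, from 48 to 92 counts each. The groups were far apart and the rise was 11.7-fold (log2 FC 3.55, SE 0.32, adjusted p = 1.59e-09). Because Axl entered the test through the LPS-treated groups, where it is high, its call is not counted as support, and of the other 9 markers 6 were called. Even so, the mean of 3.39 ± 0.877 TPM after LPS left Axl far below the other markers. Its relative Mertk moved the other way, from 79.3 ± 3.44 to 15.1 ± 2.71 CPM (log2 FC -2.39), while Socs1 (5.10) and Socs3 (2.87), inhibitors of cytokine signalling that TAM receptors are known to induce, rose. The ligand genes Gas6 and Pros1 and the third receptor gene Tyro3 were too low to be tested.

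Clec7a had the largest fall, from the levels given above to 43.2, 64.2, 44.3, 44.2 and 55.3 CPM. No LPS-treated culture reached the lowest untreated one, and the mean was 2.32-fold lower (log2 FC -1.21, SE 0.13, adjusted p = 1.95e-08). Trem2 fell to 239, 211, 207, 152 and 178 CPM, again without overlap (1.65-fold lower, log2 FC -0.72, SE 0.15, adjusted p = 0.000246). Its adaptor Tyrobp was at 389, 350, 339, 236 and 299 CPM, with a log2 FC of -0.11 that did not pass (95% interval -0.38 to 0.17, adjusted p = 0.502). The receptor and its adaptor therefore differed in whether the LPS response passed, although the difference between the genes was not tested.

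Apoe was at 2685, 2557, 2488, 1467 and 1788 CPM after LPS, lower than the untreated culture of the same batch in all 5 batches but overlapping between groups (log2 FC -0.42, SE 0.16, adjusted p = 0.0287). The call was lost by the DESeq2 Wald test (adjusted p = 0.0665), without young untreated culture 1 (0.0753) and without batch 2 or 5. With batch as a replicate block the call was kept in edgeR (adjusted p = 0.00171) and in DESeq2 (0.000463). Cd52 was at 32.9, 33.8, 39.4, 16.0 and 18.6 CPM, higher within all 5 batches (1.73-fold, log2 FC 0.79, SE 0.28, adjusted p = 0.0173). The same cultures, numbers 4 and 5, were the lowest with and without LPS. Spp1 was at 3225, 3059, 2625, 2884 and 3883 CPM (1.33-fold, log2 FC 0.41, SE 0.11, adjusted p = 0.00191), and Cst7 at 50.9, 58.0, 55.7, 52.9 and 58.2 CPM (1.16-fold, log2 FC 0.21, SE 0.066, adjusted p = 0.00788). Both overlapped with the untreated group and were higher within all 5 batches. Without batch 2 the calls of Cd52 (adjusted p = 0.0654) and Cst7 (0.0903) were lost, and without batch 3 that of Cst7 (0.0617), so that 4 markers were called without batch 2, against 58.5% of all genes. On library sizes alone Spp1 (log2 FC 0.19, adjusted p = 0.113) and Cd52 (0.57, adjusted p = 0.0713) did not pass and Cst7 changed sign (-0.01).

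Gpnmb (4282 to 6634 CPM, log2 FC -0.15, adjusted p = 0.426) and Cd9 (292 to 364 CPM, log2 FC -0.09, adjusted p = 0.288) did not pass. Cd9 was lower with LPS within all 5 batches, by 0.03 to 0.19 on the log2 scale, and it passed with the replicate block (adjusted p = 0.0274), when 8 markers were called against 67.7% of all genes. On library sizes alone Tyrobp (-0.33), Gpnmb (-0.37) and Cd9 (-0.31) passed as lower, in a scaling that had moved all genes down.

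In the lists, many genes passed with LPS in young cells, as did 64.6% of all genes (31.2% higher, 33.5% lower). The counts below are therefore not read as particular to these lists. Of 34 genes of the wider DAM programme 17 rose, led by the chemokine genes Ccl4 (log2 FC 5.88) and Ccl3 (4.80), and 6 fell, with Ank (-1.71) and Timp2 (-1.04) the furthest. Around TREM2 and TYROBP 10 of 22 rose, led by the kinase gene Syk (2.32) and the related receptor gene Trem3 (1.89), and 5 fell, namely Inpp5d (-1.68), which encodes the phosphatase SHIP1, Card9 (-0.88), Adam10 (-0.58), Pik3cd (-0.50) and Lat2 (-0.45). Of 15 Dectin-1 signalling genes, which share Syk and Card9 with that list, 9 rose and 4 fell: Clec4e (4.86) and Clec4d (2.50), which encode other C-type lectin receptors, rose the most, while Nfatc2 (-1.71), Nfatc1 (-1.02), Card9 (-0.88) and Ptpn6 (-0.37) fell. Clec7a thus fell while relatives of its lectin family rose.

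Among lipid partners of APOE 5 of 17 rose, led by Lcat (log2 FC 1.86) and Abca1 (0.95), and 6 fell, led by Apoc2 (-0.67) and Srebf1 (-0.56). Of the 6 receptor genes of osteopontin that were tested, Itga5 (3.00), Cd44 (1.52), Itga4 (1.03) and Itgb1 (0.87) rose and Itgb5 (-1.41) and Itgav (-0.59) fell. Cystatin F targets and cystatins showed less: Cstb rose (0.60), Lgmn (-0.75) and Ctsh (-0.45) fell, and the other 5 did not pass. Of 7 MiT/TFE genes Tfec (1.78), Mitf (0.90), Rragc (0.44) and Tfe3 (0.39) rose and Tfeb (-1.66) and Rragd (-1.07) fell. Of 13 tetraspanins and partners 4 rose, namely Cd82 (1.43), Igsf8 (0.71), Tspan31 (0.27) and Cd63 (0.23), and 8 fell, led by Tspan32 (-1.76) and Cd81 (-1.51). Of 11 homeostatic genes 8 fell, led by Tmem119 (-2.97) and P2ry12 (-2.49), and Selplg rose (0.49). All 12 interferon-induced genes rose, with Mx1 (8.22) and Cxcl10 (7.71) the furthest, and 3 of the 12 had at least 10 counts in every library. The others entered the test through the groups in which they are high.

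**Figure D3:**
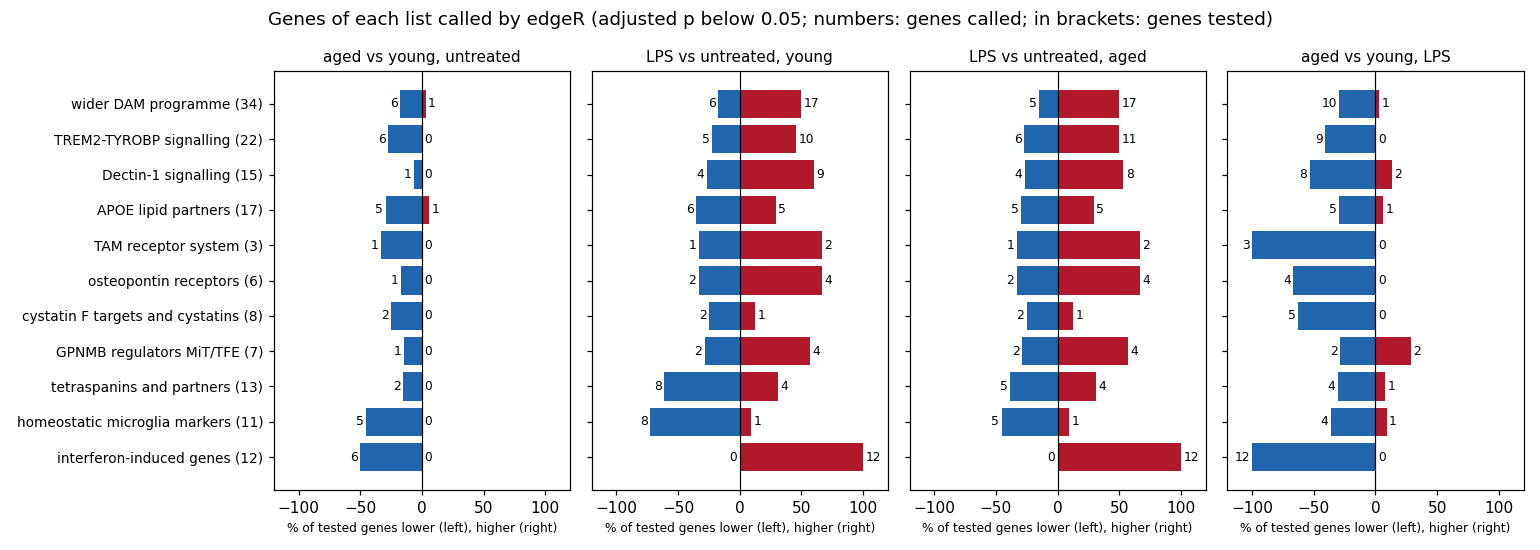
Share of the tested genes of each of 11 lists that were called higher (right, red) or lower (left, blue) in the 4 comparisons, with the number of genes called at the bar ends and the number tested in brackets. In both LPS panels 17 of the 34 wider DAM genes are higher and all 12 interferon-induced genes are higher, and in the 2 age panels most bars point to the left. Only 3 of these 12 had at least 10 counts in every library.

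The third comparison set LPS against no LPS in aged BV-2 microglia, at the same dose and time. Whether the response differed from that of young cells is tested further below. Axl rose and Trem2, Apoe and Clec7a fell, which are 4 of 10 markers, 1 higher and 3 lower, where 54.4% of all genes passed (27.5% higher, 26.9% lower). The median log2 FC was -0.05 over the markers and 0.0005 over all genes. On library sizes alone the median of all genes moved to -0.16, with 2172 genes called higher and 5476 lower in place of 3523 and 3445, and 7 markers were called, 1 higher and 6 lower, against 59.8% of all genes.

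Axl was at 1.05, 0.990, 2.62, 0.929 and 1.30 CPM in aged LPS-treated cultures, from 12 to 38 counts each, and at 0.259, 0, 0.114, 0.330 and 0.0666 CPM in aged untreated cultures. All LPS-treated cultures were above all untreated ones, with a fitted rise of 8.34-fold that rests on 13 untreated counts in all (log2 FC 3.06, 95% interval 2.10 to 4.02, adjusted p = 6.95e-06). The limit given for young cells holds here too, and of the other 9 markers 3 were called. Clec7a fell to 18.4, 26.1, 35.5, 26.6 and 26.6 CPM, a mean 2.51-fold lower without overlap (log2 FC -1.33, SE 0.13, adjusted p = 1.63e-08). Trem2 fell to 118, 173, 249, 166 and 153 CPM (1.59-fold lower, log2 FC -0.67, SE 0.15, adjusted p = 0.000796). Only culture 3 overlapped with the untreated group, and it was also the highest culture there.

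Apoe was at 1008, 1147, 1693, 1111 and 1101 CPM, lower within all 5 batches (log2 FC -0.47, SE 0.16, adjusted p = 0.0164), and culture 3 again lay within the untreated range. Its call was lost without batch 1 (adjusted p = 0.0602) or batch 2 (0.0564), and kept with the replicate block in edgeR (0.000824). Spp1 was at 3476, 3465, 3694, 3537 and 3947 CPM, higher than its untreated partner in all 5 batches but by 0.04 to 0.10 on the log2 scale only (log2 FC 0.07, 95% interval -0.15 to 0.29, adjusted p = 0.595), and on library sizes alone it had the opposite sign (-0.09). Cst7 was at 53.7, 57.3, 59.0, 57.3 and 55.8 CPM (log2 FC -0.07, adjusted p = 0.389) and Cd52 at 6.53, 9.15, 16.7, 10.8 and 9.11 CPM (log2 FC 0.29, 95% interval -0.35 to 0.94, adjusted p = 0.449). The members that rose modestly with LPS in young cells did not pass in aged cells, where Spp1 and Cst7 started from a higher untreated level and Cd52 from a lower one. Tyrobp (198 to 289 CPM, log2 FC -0.17), Gpnmb (3960 to 6107 CPM, -0.03) and Cd9 (278 to 357 CPM, -0.03) did not pass either.

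In the lists, the wider DAM programme had 17 of 34 genes higher and 5 lower, in a comparison where 54.4% of all genes passed. Ccl4 (log2 FC 5.91) and Ccl3 (4.49) rose the most, and the 5 that fell were Ank (-1.34), Timp2 (-1.04), Cd83 (-0.61), Cadm1 (-0.29) and Lpl (-0.27). Around TREM2 and TYROBP 11 of 22 rose, led by Syk (2.01) and Trem3 (1.54), and 6 fell, led by Inpp5d (-1.51) and Card9 (-0.63). Dectin-1 signalling had 8 of 15 higher, led by Clec4e (4.56) and Clec4d (2.27), and 4 lower, namely Nfatc2 (-1.03), Card9 (-0.63), Nfatc1 (-0.50) and Ptpn6 (-0.38). Of the TAM receptor system Socs1 (3.36) and Socs3 (2.06) rose and Mertk (-2.46) fell.

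The remaining lists also had genes in each direction, except the interferon-induced genes, of which all 12 rose with Mx1 (log2 FC 9.95) and Rsad2 (9.72) in front. Only 3 of these 12 had at least 10 counts in every library, and the others entered the test through the groups in which they are high. In aged untreated cultures the 12 together summed to 45.6 to 54.1 CPM, so these folds start from low levels. Lipid partners of APOE had 5 of 17 higher, led by Abca1 (0.95) and Lcat (0.83), and 5 lower (Apoc1 -0.89, Mylip -0.70, Srebf1 -0.45, Lpl -0.27 and Sorl1 -0.19). Osteopontin receptors had Itga5 (2.72), Cd44 (1.12), Itga4 (0.83) and Itgb1 (0.69) higher and Itgb5 (-1.18) and Itgav (-0.78) lower. Cystatins had Cstb (0.52) higher and Lgmn (-0.62) and Ctsh (-0.40) lower among 8, and MiT/TFE genes had Tfec (1.71), Mitf (0.46), Rragc (0.33) and Tfe3 (0.27) higher and Tfeb (-1.26) and Rragd (-0.74) lower among 7. Of 13 tetraspanins and partners Cd82 (1.26), Igsf8 (0.62), Cd37 (0.60) and Tspan31 (0.24) rose, and Tspan32 (-1.47), Cd81 (-1.37), Tspan14 (-0.71), Cd53 (-0.30) and Tspan3 (-0.29) fell. Of 11 homeostatic genes P2ry12 (-3.34), Tmem119 (-2.37), P2ry13 (-2.05), Mef2c (-1.57) and Olfml3 (-0.95) fell and Selplg (0.27) rose.

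The LPS-treated cells were next compared by age. Under LPS 5 of the 10 markers differed and all were lower in aged cells, namely Axl, Cd52, Clec7a, Apoe and Tyrobp, where 29.0% of all genes passed (14.0% higher, 15.0% lower). Axl entered the test through the LPS-treated groups, so its call is not counted as support here either, and of the other 9 markers 4 were called. The median log2 FC was -0.32 over the markers and 0.0085 over all genes. On library sizes alone 3167 genes were called higher and 1353 lower, in place of 1794 and 1923. This comparison shares its libraries with the LPS comparisons above, and its values follow from the levels already given.

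Axl was 3.96-fold lower in aged LPS-treated cells, with no overlap between 0.929 to 2.62 CPM in aged and 3.58 to 7.63 CPM in young cultures (log2 FC -1.99, SE 0.27, adjusted p = 1.07e-05). Cd52 was 2.68-fold lower (log2 FC -1.42, SE 0.29, adjusted p = 0.000819), and only aged culture 3, at 16.7 CPM, passed the lowest young culture, at 16.0 CPM. Clec7a was 1.88-fold lower without overlap (log2 FC -0.91, SE 0.14, adjusted p = 2.36e-05). Apoe was 1.81-fold lower (log2 FC -0.86, SE 0.16, adjusted p = 0.000349), with aged culture 3 above young culture 4. All 4 genes were lower in aged cells within all 5 batches.

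Tyrobp was also lower within all 5 batches (1.36-fold, log2 FC -0.44, SE 0.13, adjusted p = 0.0147), and this call was lost without batch 1 (adjusted p = 0.0759) or batch 2 (0.107). Trem2 did not pass (log2 FC -0.20, 95% interval -0.52 to 0.12, adjusted p = 0.372). Spp1 had a log2 FC of 0.21 (adjusted p = 0.156), was higher in aged cells within all 5 batches and passed with the replicate block (log2 FC 0.22, adjusted p = 0.0445), with 6 markers then called against 33.4% of all genes. Cst7, at 55.1 ± 3.21 CPM in young and 56.6 ± 2.01 CPM in aged LPS-treated cells, did not pass (log2 FC 0.04, adjusted p = 0.718), nor did Gpnmb (-0.15, adjusted p = 0.533) or Cd9 (-0.01, adjusted p = 0.950).

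Among other genes, all 12 interferon-induced genes were lower in aged LPS-treated cells, led by Mx1 (log2 FC -2.27) and Ifit2 (-1.85). Of all genes 29.0% passed here, 14.0% as higher and 15.0% as lower. The wider DAM programme had 10 of 34 genes lower, led by Lgals3bp (-1.85) and Ccl4 (-0.88), and Ank (0.48) higher. Around TREM2 and TYROBP 9 of 22 were lower, led by Ms4a4a (-3.40) and Ms4a6d (-1.81), and Syk fell by 0.57 on the log2 scale. Dectin-1 signalling had 8 of 15 lower, led by Malt1 (-0.93) and Clec4n (-0.89), and Nfatc1 (0.49) and Nfatc2 (0.49) higher. All 3 tested genes of the TAM receptor system were lower (Socs1 -0.98, Socs3 -0.96 and Mertk -0.51), as were 4 of 6 osteopontin receptor genes (Itga5 -0.59, Cd44 -0.55, Itga4 -0.34 and Itgb1 -0.27).

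Cystatin F targets and cystatins had 5 of 8 lower, namely Ctsk (log2 FC -1.16), Ctsh (-0.69), Cst3 (-0.44), Ctss (-0.40) and Ctsc (-0.39), in cells in which the level of Cst7 itself did not pass. Lipid partners of APOE had 5 of 17 lower (Apoc2 -0.93, Mylip -0.63, Nr1h3 -0.43, Abca1 -0.41 and Nr1h2 -0.34) and Lrp8 (0.50) higher. MiT/TFE genes had Tfec (-1.44) and Mitf (-0.49) lower and Rragd (0.47) and Tfeb (0.38) higher among 7, tetraspanins had Cd81 (-0.46), Cd82 (-0.35), Igsf8 (-0.29) and Cd53 (-0.27) lower and Tspan14 (0.31) higher among 13, and homeostatic genes had P2ry13 (-1.53), Olfml3 (-0.76), Selplg (-0.53) and Csf1r (-0.38) lower and Tmem119 (0.62) higher among 11. With a batch left out, the called genes ranged from 7 (without batch 2) to 12 in the wider DAM programme, from 6 (without batch 2) to 11 in Dectin-1 signalling, from 2 (without batch 1 or 2) to 5 among cystatins, for which DESeq2 called 3, and from 3 (without batch 2 or 3) to 5 among homeostatic genes. Without aged culture 3 the wider DAM programme had 21.

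Whether the LPS response itself differed between aged and young cells was tested as a difference of log2 FC. None of the 10 markers passed in edgeR, where 6.39% of all genes did (4.12% with a higher and 2.27% with a lower response in aged cells). At an unadjusted p below 0.05 there were 2 of 10, Spp1 and Cst7, where 2481 of all 12799 genes were below it. The DESeq2 Wald test called 1, Cst7 (adjusted p = 0.0343), against 9.11% of all genes. With batch as a replicate block, edgeR still called none (adjusted p = 0.0619 for Cst7 and 0.0691 for Spp1), while DESeq2 called both Spp1 (-0.36, adjusted p = 0.0288) and Cst7 (-0.30, adjusted p = 0.0311), against 12.6% of all genes. On library sizes alone the all-gene counts were 881 higher and 203 lower in place of 527 and 291. For Cst7 the difference was -0.28 (95% interval -0.47 to -0.09, edgeR adjusted p = 0.0780) and for Spp1 -0.34 (-0.65 to -0.02, adjusted p = 0.216). For these 2 genes the call of a smaller LPS response in aged cells thus depended on the tool and the block, and for the other markers no test run showed a different response. The intervals were wide for Cd52 (-0.50, 95% interval -1.37 to 0.37) and Axl (-0.49, -2.03 to 1.06), and narrower for Clec7a (-0.11, -0.49 to 0.27), Trem2 (0.06, -0.39 to 0.50) and Apoe (-0.06, -0.53 to 0.41).

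In the lists, 8 genes passed this test in edgeR, as did 6.39% of all genes. The response of Malt1 (difference -0.92), Prkcd (-0.42), Mylip (-0.55) and Ifit2 (-1.30) was lower in aged cells, and that of Nfatc2 (0.67), Nfatc1 (0.51), Tspan14 (0.43) and Ank (0.37) was higher. Of its 22 genes, the signalling list of TREM2 and TYROBP had none called, 4 at an unadjusted p below 0.05 and 1 by DESeq2. The homeostatic list of 11 likewise had none called, 2 at an unadjusted p below 0.05 and none by DESeq2. Over all genes 2481 of 12799 were below that unadjusted p. With the replicate block 3 genes of the wider DAM programme, 5 of Dectin-1 signalling, 2 of the interferon-induced genes and 1 of TREM2 and TYROBP signalling passed.

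**Figure D4:**
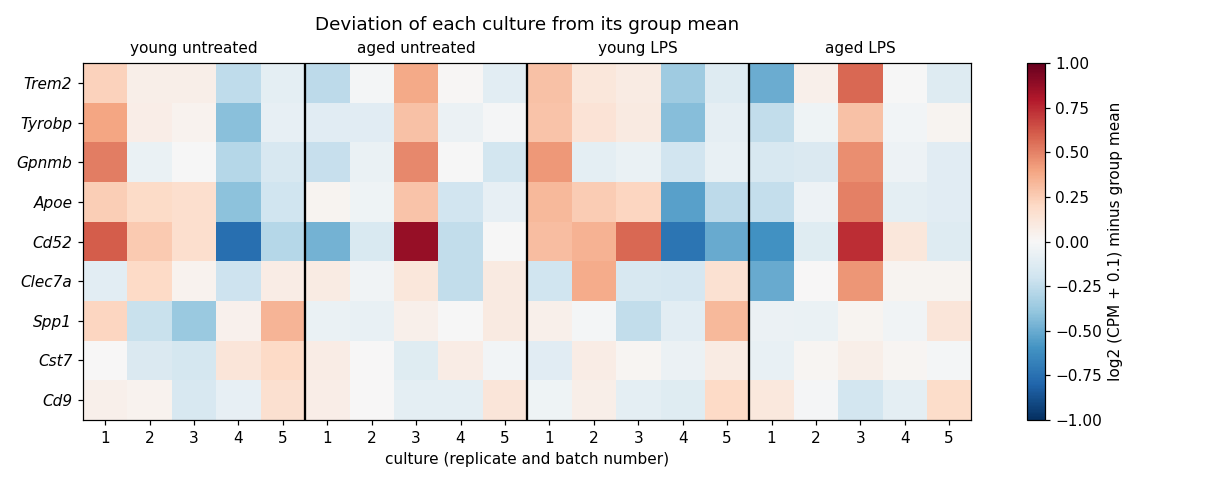
Deviation of each culture from the mean of its group for 9 of the 10 genes, as log2 of CPM with 0.1 added, in columns by group and culture number and coloured from blue (lower) to red (higher). Trem2, Tyrobp, Gpnmb, Apoe and Cd52 are red together in young culture 1 and in aged culture 3 and blue together in young culture 4, with and without LPS. Axl, with few counts in untreated cells, is left out.

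Within groups, the markers varied together by culture. In young untreated cells culture 1 was the highest in 5 members (Trem2, Tyrobp, Apoe, Gpnmb and Cd52) and culture 4 the lowest in 6, and with LPS culture 1 was the highest in 4 and culture 4 the lowest in 7. In aged cells culture 3 was the highest in 6 members without LPS (Trem2, Tyrobp, Apoe, Gpnmb, Clec7a and Cd52) and in 8 with LPS, where Cst7 and Axl joined them. Aged culture 1 was the lowest in 4 and in 7 members. Spp1 and Cd9 followed another order, with culture 5 the highest in all 4 groups.

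Gpnmb shows the size of this spread. It was at 7719 CPM in young untreated culture 1 against 4438 to 5390 CPM in the others, and at 6634 CPM in young LPS-treated culture 1 against 4282 to 4687 CPM. In aged cells it was at 6272 CPM in untreated culture 3 against 3825 to 4471 CPM, and at 6107 CPM in LPS-treated culture 3 against 3960 to 4250 CPM. The culture that stood high was thus the same with and without LPS at each age, and it carried different numbers in young and aged cells. Whether untreated and LPS-treated cultures of the same number came from the same flask is not given in the sources used here.

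Interferon-induced genes moved with some of these cultures. Their 12 levels summed to 142.6 CPM in young untreated culture 1 against 66.5 to 89.2 CPM in the other young untreated cultures, and to 3339 CPM in aged LPS-treated culture 3 against 1194 to 1833 CPM in the other aged LPS-treated cultures. In aged untreated culture 3 the sum was 45.6 CPM, the lowest of its group (45.6 to 54.1 CPM). Their part in the levels of the markers was not tested.

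Aged culture 3 bears on the age comparisons. With both libraries of aged culture 3 left out, an alternative chosen after the values were seen, 8 of 10 markers were called between aged and young untreated cells, 2 higher and 6 lower, against 13.8% of all genes. Tyrobp (log2 FC -0.46, adjusted p = 0.0182), Gpnmb (-0.41, adjusted p = 0.0364) and Trem2 (-0.36, adjusted p = 0.0445) then passed as lower. With the replicate block added Trem2 did not pass (-0.34, adjusted p = 0.0689), which left 7 markers called against 16.7% of all genes. Under LPS Trem2 also passed (-0.37, adjusted p = 0.0230), as 1 of 6 markers called against 31.6% of all genes. In the test of the LPS responses Cst7 passed (-0.32, adjusted p = 0.0432, against 7.5% of all genes), and with the block Spp1 passed as well (-0.34, adjusted p = 0.0194, against 9.92%). Without young untreated culture 1, on the other hand, the age differences without LPS were smaller and did not pass in edgeR. They were -0.27 for Tyrobp (adjusted p = 0.203), -0.19 for Trem2 (0.519) and -0.12 for Gpnmb (0.701). In that fit Gpnmb and Tyrobp had log2 FC of 0.00 with LPS in young cells. The calls of Cd52 with age and of Apoe with LPS in young cells were lost.

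For each marker, the gene whose level was most alike over the 20 libraries was found as a description, by Pearson's r of log2 CPM. Libraries of a group share their treatment and batches are shared between groups, so these values mix differences between groups and between cultures. Apoe was most like Man2b1 (r = 0.990), which encodes a lysosomal mannosidase, Tyrobp most like Cst3 (0.970), which encodes cystatin C, and Gpnmb most like Ctsd (0.962), which encodes the lysosomal protease cathepsin D. Trem2 was most like Abhd12 (0.974), Clec7a like the kinase gene Tec (0.975), Axl like Ptafr (0.973), which encodes the receptor of platelet-activating factor, and Cd52 like Wfdc17 (0.959). Spp1 was most like Rpp40 (0.943), Cd9 like Cyb5r4 (0.884) and Cst7 like another of the 10 markers, Spp1 (0.821).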

How the data were processed

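Stranded libraries were prepared by the authors from poly(A) RNA and sequenced on an Illumina instrument. The submitters' processing notes name FastQC (0.11.8), STAR (2.6.1d), featureCounts (1.5.1) and DESeq2, and list the build GRCm38 beside human builds. The authors deposited whole-number counts per Ensembl gene without normalization, which are the values used here. How featureCounts was set to treat strand, overlaps and reads with several alignments is not given in the sources used here.

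The 20 columns were assigned to groups and batches by their names, which match the labels. Counts were tested in R 4.3.3 with edgeR 4.0.16 (filterByExpr, TMM, glmQLFit and glmQLFTest, group means only, all 20 libraries in a single fit), with adjusted p below 0.05 over 12799 genes as the threshold. SE were taken as the log2 FC divided by the square root of F, and intervals are 95% intervals. P-values rest on an estimate of the spread among cultures within groups, which the 4 groups of 5 share. The authors describe that aged cells were frozen after the long-term culture and that aliquots were then used. They do not state whether the aged cultures came from separate long-term cultivations. The p-values may therefore not cover the spread between such cultivations. CPM used TMM-scaled library sizes. TPM used the merged exon lengths of GENCODE M21, in which 55227 of 55487 identifiers were found. Levels were limited by a floor of 3 counts, or 0.165 to 0.296 CPM per library.

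The labels make the replicate number a batch number shared by all groups, so the numbers pair the samples. Over pairs of groups the deviations of same-numbered samples from their group means correlated by 0.146 on average, most between untreated and LPS-treated cells of the same age (0.276 in young, 0.260 in aged) and least between the LPS-treated groups (0.0425).

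The alternatives were a Wald test with DESeq2 1.42.0, either tool with batch as a replicate block, DESeq2 size factors in edgeR, library sizes alone, no filter, at least 10 counts in every library, only the groups compared, each batch left out, young untreated culture 1 left out, and a threshold of 0.01. The alternatives without aged culture 3 were added after the values were seen.

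The members, the lists and the motifs were chosen with earlier results of these data known. Beside the 10 members, the text names from each list up to 2 called genes with the largest rise and up to 2 with the largest fall in a comparison, all genes of counts of 5 or fewer (except among the lipid partners of APOE that were higher with LPS, where a gene is not reported here), and the gene most alike to each member. Syk with age under LPS was named outside this rule after its value was seen, and genes too low to be tested were named for their role.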

Additional observations from a re-analysis of the deposited data

Results flagged for a closer look

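Each member was checked in each group for a culture that stood apart from the other 4, by whether its gap to the nearest culture exceeded 0.71 of the group's range (Dixon's test at the 95% level for 5 samples). Of 40 groups of 5, 7 held such a culture. Chance alone flags about 1 in 20 groups, but the members were measured in the same 20 cultures and varied together, so the 7 are not independent and are not set against that share. Aged culture 3 was the one in 6 of them: without LPS in Tyrobp (325 CPM, next 263), Gpnmb (6272 CPM, next 4471) and Cd52 (14.8 CPM, next 7.99), and with LPS in Apoe (1693 CPM, next 1147), Gpnmb (6107 CPM, next 4250) and Axl (2.62 CPM, next 1.30). The 7th was young LPS-treated culture 1 in Gpnmb (6634 CPM, next 4687). The values without aged culture 3 stand in the report.

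Among the listed genes the LPS response differed between aged and young cells for 8 by the edgeR test of the difference. Of all genes 6.39% passed it. The response was lower in aged cells for Ifit2 (-1.30 on the log2 scale, adjusted p = 0.0246), Malt1 (-0.92, adjusted p = 0.0114), Mylip (-0.55, adjusted p = 0.00881) and Prkcd (-0.42, adjusted p = 0.0148). It was higher for Nfatc2 (0.67, adjusted p = 0.000162), Nfatc1 (0.51, adjusted p = 0.00336), Tspan14 (0.43, adjusted p = 0.00336) and Ank (0.37, adjusted p = 0.0267). Nfatc1 and Nfatc2 fell with LPS at both ages, and Malt1 and Prkcd rose at both ages, so these differences are in the size of the response.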

How the results depend on the processing

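The counts of called markers stayed within 1.5 times the reported counts under most alternatives. Exceptions were LPS in young cells without batch 2 (4 markers, against 58.5% of all genes), LPS in aged cells on library sizes alone (7, against 59.8%) and aged against young untreated cells without aged culture 3 (8, against 13.8%). A count can also stay while its genes change. With LPS in young cells on library sizes alone, Spp1, Cst7 and Cd52 lost their calls. Tyrobp, Gpnmb and Cd9 were called as lower in their place. For the difference of the LPS responses, where edgeR called none, the DESeq2 Wald test called 1 marker (Cst7), DESeq2 with the replicate block 2 (Cst7 and Spp1), the fit without aged culture 3 called 1 and that fit with the replicate block 2. Leaving out each batch in turn gave 4 to 6 called markers for age without LPS, 4 to 7 for LPS in young cells, 3 to 4 for LPS in aged cells, 4 to 5 for age under LPS and 0 for the difference of the responses. Of the 12760 to 12829 genes tested in these fits, 548 to 1193, 7501 to 8016, 6174 to 6554, 2156 to 3563 and 189 to 697 were called, in the same order. The replicate block in edgeR added the calls of Tyrobp, Cd9 and Spp1 given in the report and changed no other call of a member. Counts of called list genes moved by over 1.5 times in 134 values and by less in 790, most of them in the age comparison without LPS and in the difference of the responses.

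Over 50 member comparisons and 16 alternatives, 713 of 783 values kept their direction and their side of the threshold, 33 newly passed, 18 no longer passed and 19 changed sign. The sign changes were near 0 and none was a call in the other direction. On library sizes alone they were Cst7 with LPS in young cells (-0.011), Spp1 with LPS in aged cells (-0.088), Cd9 with age under LPS (0.073) and Apoe in the difference (0.0025). Without young untreated culture 1 they were Tyrobp (0.0040) and Gpnmb (0.0030) with LPS in young cells, and Trem2 (-0.0035) and Gpnmb (-0.029) in the difference. Over all alternatives that leave out libraries, the values of these genes and comparisons ran from -0.13 to 0.0040, from -0.17 to 0.0030, from -0.0063 to 0.13 and from -0.029 to 0.15. Without batch 1 they were Gpnmb with age under LPS (range -0.31 to 0.023) and Apoe (-0.13 to 0.031) and Clec7a (-0.27 to 0.0014) in the difference. Cd9 with age under LPS (lowest -0.044) also changed sign without the filter (0.0012), without batch 2 (0.0098) or 3 (0.0088), without aged culture 3 (0.035) and then with the replicate block (0.0036), as did Trem2 in the difference without batch 3 (-0.0056), without aged culture 3 (-0.0063) and then with the block (-0.0054). The cause of these changes was not tested. Axl has few counts in untreated cells, and depth limits its fold.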
